A study of Mus musculus with 6 samples.

Results

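The genes described here are 43 members of the Toll-like receptor and NF-kB pathway, taken by symbol from a list out of the 54532 gene identifiers in the deposited tables. The list was chosen with earlier results of these data known. The members comprise 15 receptors and receptor partners, 16 adaptors and kinases, 5 NF-kB subunits and 7 inhibitors, and all 43 were found. In the shPGAM5 group (3 libraries) a short hairpin RNA was directed at Pgam5, which encodes a mitochondrial protein phosphatase. In the shDRP1 group (3 libraries) the hairpin was directed at Dnm1l, whose product DRP1 is the GTPase of mitochondrial fission. Both groups were iBMDM, an immortalized line of mouse macrophages derived from bone marrow, and every culture was exposed for 24 h to 10 ng/ml of the cytokine IL-4. No library with a non-targeting hairpin or without IL-4 was analysed here, so each difference below sets 1 knockdown against the other. The labels do not say whether the replicate numbers stand for separate cultures or separate hairpins, and a p-value here reflects the scatter of these 6 libraries alone, which may be technical.

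Toll-like receptors sense conserved parts of microbes, lipids and proteins at the cell surface and nucleic acids in endosomes. They pass the signal through TIR-domain adaptors, IRAK kinases and the ubiquitin ligase TRAF6 to the IKK complex, which marks the IkB inhibitors for destruction and so frees NF-kB dimers to enter the nucleus. In macrophages the pathway drives cytokine and chemokine genes, and several of its own inhibitors are induced by NF-kB, which limits the response.

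Ten-base matches to the kappaB consensus, the DNA motif that NF-kB dimers bind, stood in the 250 bases before a start site for 10 of the 32 members that have a RefSeq promoter entry. The share was 31.2% of these members, against 8.23% of all 27025 genes with an entry of the same length. Both strands were searched, overlapping matches were counted apart, and the match is a description of letters only. The members without an entry were Tlr4, Tlr7, Cd14, Ly96, Unc93b1, Ticam2, Tab1, Ikbkb, Nfkb1, Relb and Nfkbiz. The stretches below show the matches (in capitals) of members that differed between the knockdowns (Tlr2, Traf3, Nfkb2) and, as examples chosen with the values known, of 4 of the 6 members with a match that did not pass the test (Rel, Nfkbia, Tnip1, Tnfaip3), each read 5′ to 3′ on the strand of its gene from the RefSeq promoters of build GRCm38.p6. The remaining members with a match were Irak1, Nfkbie and Tlr3. For Nfkb2 the other matches, 1 nearer the same start site and 1 before each of the other start sites with a match, are not printed. By the GENCODE annotation the Nfkb2 bases also lie in an exon of 1 longer isoform, and an end of the Tlr2 stretch and of the Tnfaip3 stretch reaches into an exon of an isoform that starts farther upstream.
Tlr2, chr3:83841756-83841796, minus strand: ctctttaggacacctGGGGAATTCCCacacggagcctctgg
Traf3, chr12:111166345-111166369, plus strand: gcccaggcggcccgcGGGGATTTCC
Nfkb2, chr19:46304689-46304717, plus strand: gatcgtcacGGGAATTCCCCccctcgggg
Rel, chr11:23771036-23771076, minus strand: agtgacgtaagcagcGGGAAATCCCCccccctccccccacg
Nfkbia, chr12:55492652-55492691, minus strand: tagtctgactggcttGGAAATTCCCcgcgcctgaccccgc
Tnip1, chr11:54962972-54963013, minus strand: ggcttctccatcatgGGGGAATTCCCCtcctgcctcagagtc
Tnfaip3, chr10:19015411-19015550, minus strand: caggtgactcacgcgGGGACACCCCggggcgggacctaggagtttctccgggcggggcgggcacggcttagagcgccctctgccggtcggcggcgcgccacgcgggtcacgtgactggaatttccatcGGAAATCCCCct

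The libraries held 16111280 to 21933548 reads, as recovered from the steps of the FPKM values. FPKM is fragments per kilobase of transcript, scaled to the library's total. Pgam5 averaged 4.91 ± 0.31 FPKM in shPGAM5 and 17.2 ± 0.14 FPKM in shDRP1 (SD, n = 3 each), and Dnm1l 17.9 ± 0.75 FPKM in shPGAM5 and 7.57 ± 0.55 FPKM in shDRP1, so each target was low in its own group. Of 9 macrophage markers, 8 averaged at least 1 FPKM and Mertk did not. Of 35 markers of fibroblasts, B cells, T cells, neutrophils, mast cells, dendritic cells and endothelium, none averaged 1 FPKM, 15 were at 0 in all 6 libraries, and each type's summed level stayed at or below 0.513 FPKM in shPGAM5 and 0.724 FPKM in shDRP1. The summed level of the macrophage markers was 2429 to 2552 FPKM in shPGAM5 and 3475 to 3505 FPKM in shDRP1, and most of that gap lay in Lyz2 (1272 ± 71.9 FPKM in shPGAM5 and 1954 ± 8.85 FPKM in shDRP1) and Cd68 (501 ± 19.0 FPKM in shPGAM5 and 682 ± 10.1 FPKM in shDRP1). By the limma test described below, 0 of the 8 markers tested were higher and 5 were lower (Lyz2, Cd68, Csf1r, Tyrobp and Fcgr1), against 13.8% higher and 11.7% lower among all genes tested, while Adgre1, Spi1 and Itgam did not pass. The part of these markers in the results below was not tested. In bulk libraries, fewer cells of a type and less RNA per cell cannot be told apart. Library 3 of shPGAM5 stood apart from the other libraries of its group (chi-square per gene of 7.74 with library 1 and 5.70 with library 2, against 2.61 to 3.03 for the other pairs within groups).

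Differences are given as shPGAM5 minus shDRP1 on log2(FPKM + 1), from limma with Benjamini-Hochberg adjustment over all 10634 genes that averaged at least 1 FPKM, and a gene is said to have risen or fallen in shPGAM5 where its adjusted p was below 0.05. For genes with low values, adding 1 makes the difference smaller than the true log ratio. Of the 43 members 40 were tested, 5 rose, 7 fell and 28 did not pass. The 12 that passed are 30% of those tested, set against 25.4% of all genes tested, so the share was close to that of the transcriptome. By direction, 13.8% of all genes tested rose and 11.7% fell. The median difference was -0.028 over the 40 members and 0.0094 over all genes tested. The values of the groups did not overlap for 20 members (6 higher and 14 lower in shPGAM5), or 50% of those tested. Among all genes tested 43.5% did not overlap, 23% higher and 20.5% lower in shPGAM5. All called differences of members were small, from 0.11 to 0.42 in size. For a single gene, 0.1 is the smallest two-sided p of an exact permutation test on 3 against 3 libraries, and each member that passed limma was at that limit.

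**Figure D1:**
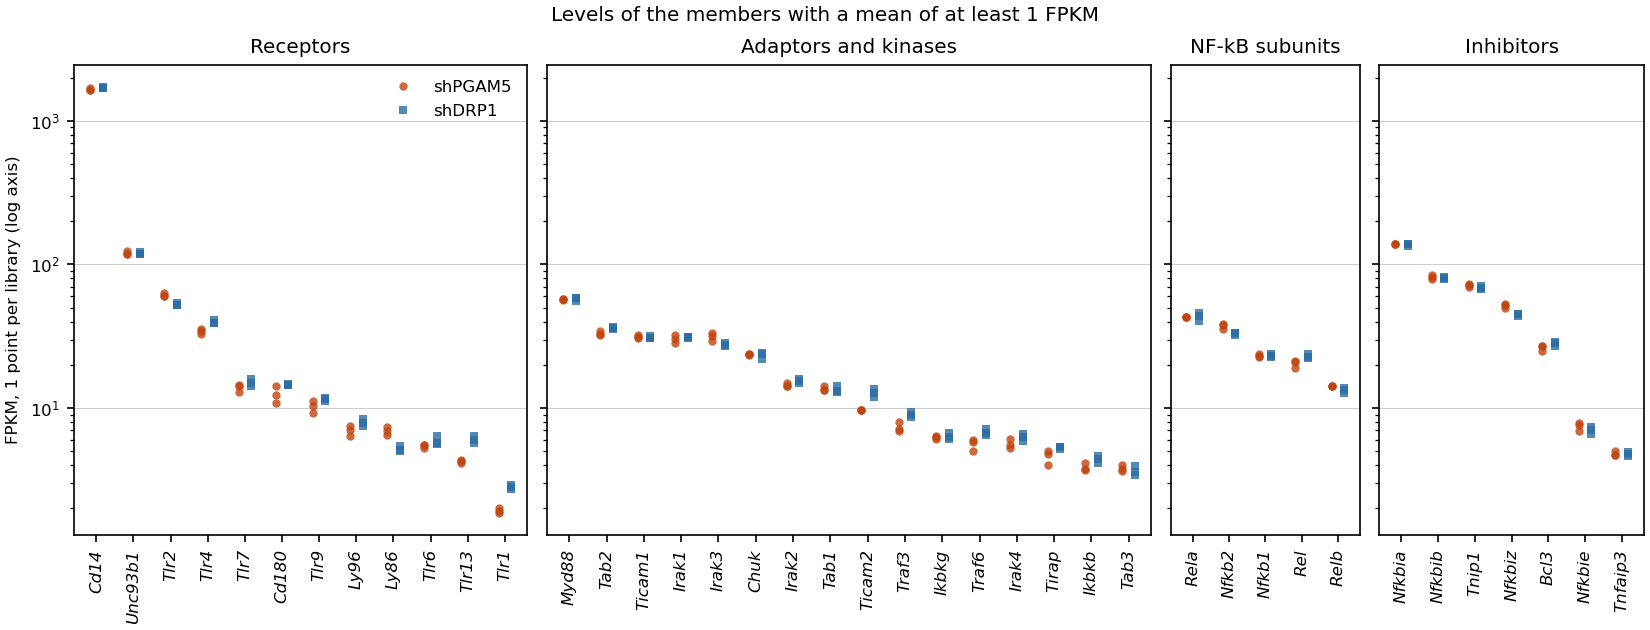
FPKM (log axis) of the 40 members that averaged at least 1 FPKM, with 1 point per library, shPGAM5 as circles left of shDRP1 as squares, genes ordered by mean within each role. Cd14 lies far above the rest, between 1627 and 1730 FPKM, and the groups lie close together for most genes.

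The receptor genes covered a wide range of levels. Cd14, the surface protein that hands bacterial lipopolysaccharide to TLR4, was the most abundant member and ranked 9 by mean FPKM among all gene identifiers. It measured 1634, 1627 and 1686 FPKM in shPGAM5, against 1705, 1692 and 1730 FPKM in shDRP1. Its groups did not overlap, but the difference of -0.052 did not pass (limma adjusted p = 0.23), although it did pass without shPGAM5 library 3 and under quantile normalization. Unc93b1, the chaperone that carries nucleic-acid-sensing receptors to endosomes, was next in level among the receptor genes and measured 124, 117 and 118 FPKM in shPGAM5, against 118, 119 and 121 FPKM in shDRP1. Its difference was 0.0051 with a 95% interval of -0.066 to 0.076, and the groups overlapped.

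Among the Toll-like receptors of the cell surface, Tlr2 rose while Tlr4 and Tlr1 fell in shPGAM5. Tlr2 (ENSMUSG00000027995, mm10 chromosome 3, 83836272 to 83841767, minus strand) encodes the receptor for bacterial lipopeptides. It measured 63.5, 60.2 and 60.7 FPKM in the shPGAM5 libraries, against 52.1, 53.8 and 52.2 FPKM in the shDRP1 libraries. All 3 shPGAM5 values lay above all shDRP1 values, with a difference of 0.22 (SE 0.032, limma adjusted p = 0.0032), or 16.7% in mean FPKM. Tlr1 (ENSMUSG00000044827, chromosome 5, 64924679 to 64933563, minus strand) encodes the partner with which TLR2 binds triacylated lipopeptides. It measured 1.92, 1.85 and 2.01 FPKM in shPGAM5, against 2.82, 2.89 and 2.73 FPKM in shDRP1, on 338 and 523 reads summed over each group's libraries. The groups were well separated, and the difference was -0.38 (SE 0.058, limma adjusted p = 0.0036), with a mean that fell by 31.5%. Tlr4 (ENSMUSG00000039005, chromosome 4, 66827584 to 66930284, plus strand), the lipopolysaccharide receptor, measured 34.6, 35.3 and 33.0 FPKM in shPGAM5, against 40.7, 39.4 and 39.2 FPKM in shDRP1. Every shPGAM5 value was below every shDRP1 value, and the mean fell by 13.7% (difference -0.21, SE 0.036, limma adjusted p = 0.0057). Tlr6, the other partner of TLR2, averaged 5.45 ± 0.15 FPKM in shPGAM5 and 5.89 ± 0.42 FPKM in shDRP1. Its groups only just stayed apart, with shPGAM5 lower, and it did not pass (difference -0.094, limma adjusted p = 0.27). Tlr5, the flagellin receptor, had 0 to 1 read per library, under the 3 reads taken as the detection limit, so no difference was detectable at this depth. The calls of Tlr2, Tlr1 and Tlr4 passed under every alternative in which each was tested.

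Of the endosomal receptors, Tlr13 fell and Tlr7 and Tlr9 did not pass. Tlr13 (ENSMUSG00000033777, chromosome X, 106143204 to 106160493, plus strand), the mouse receptor for bacterial ribosomal RNA, had the largest difference of all 40 members tested on log2(FPKM + 1), a scale that shrinks low genes, while in percent the mean of Tlr1 fell farther. It measured 4.13, 4.37 and 4.29 FPKM in shPGAM5, against 6.36, 6.02 and 5.73 FPKM in shDRP1. The groups did not overlap, and the mean fell by 29.4% (difference -0.42, SE 0.052, limma adjusted p = 0.0014), a call that passed under all 14 alternatives. Tlr7, a receptor for single-stranded RNA, measured 14.2, 14.5 and 12.9 FPKM in shPGAM5, against 14.99, 14.3 and 15.9 FPKM in shDRP1. Tlr9, the receptor for unmethylated CpG DNA, averaged 10.3 ± 1.05 FPKM in shPGAM5 and 11.5 ± 0.30 FPKM in shDRP1. Both were lower in mean and overlapped between groups (limma adjusted p = 0.19 for Tlr7 and 0.14 for Tlr9). The lowest of the 6 Tlr9 values, 9.18 FPKM, came from shPGAM5 library 3. Tlr9 passed only without shPGAM5 library 1, among its 14 alternatives (limma adjusted p = 0.039). Tlr3, the receptor for double-stranded RNA, had 1 to 6 reads per library and Tlr8 had 0 to 3, and neither was tested.

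Of the proteins that sit with the receptors, Ly86 rose. It encodes the secreted partner of CD180, a homologue of TLR4 without a signalling tail. Ly86 (ENSMUSG00000021423, chromosome 13, 37345208 to 37419036, plus strand) measured 6.87, 6.51 and 7.41 FPKM in shPGAM5, against 5.06, 5.12 and 5.45 FPKM in shDRP1. Each shPGAM5 value was above each shDRP1 value, and the mean was 33% higher (difference 0.35, SE 0.056, limma adjusted p = 0.0044), a call that passed under all 14 alternatives. Cd180 itself measured 14.3, 12.3 and 10.9 FPKM in shPGAM5, against 14.5, 14.8 and 14.5 FPKM in shDRP1. The shPGAM5 libraries were lower and more spread, and the difference of -0.21 did not pass (limma adjusted p = 0.11). It passed without shPGAM5 library 1 (difference -0.31, limma adjusted p = 0.011) and with voom, while without shPGAM5 library 3 it was -0.13. Ly96, the gene of the lipid-binding partner of TLR4, averaged 6.99 ± 0.60 FPKM in shPGAM5 and 7.94 ± 0.44 FPKM in shDRP1 and did not pass (difference -0.16, limma adjusted p = 0.12). Taking the role as a whole, 12 of 15 receptor genes were tested, 2 rose, 3 fell and 7 did not pass, with a median difference of -0.13. Among all genes tested 13.8% rose and 11.7% fell. Without shPGAM5 library 1, 5 fell, while over all genes tested 1097 fell, against 1240 with all 6 libraries.

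**Figure D2:**
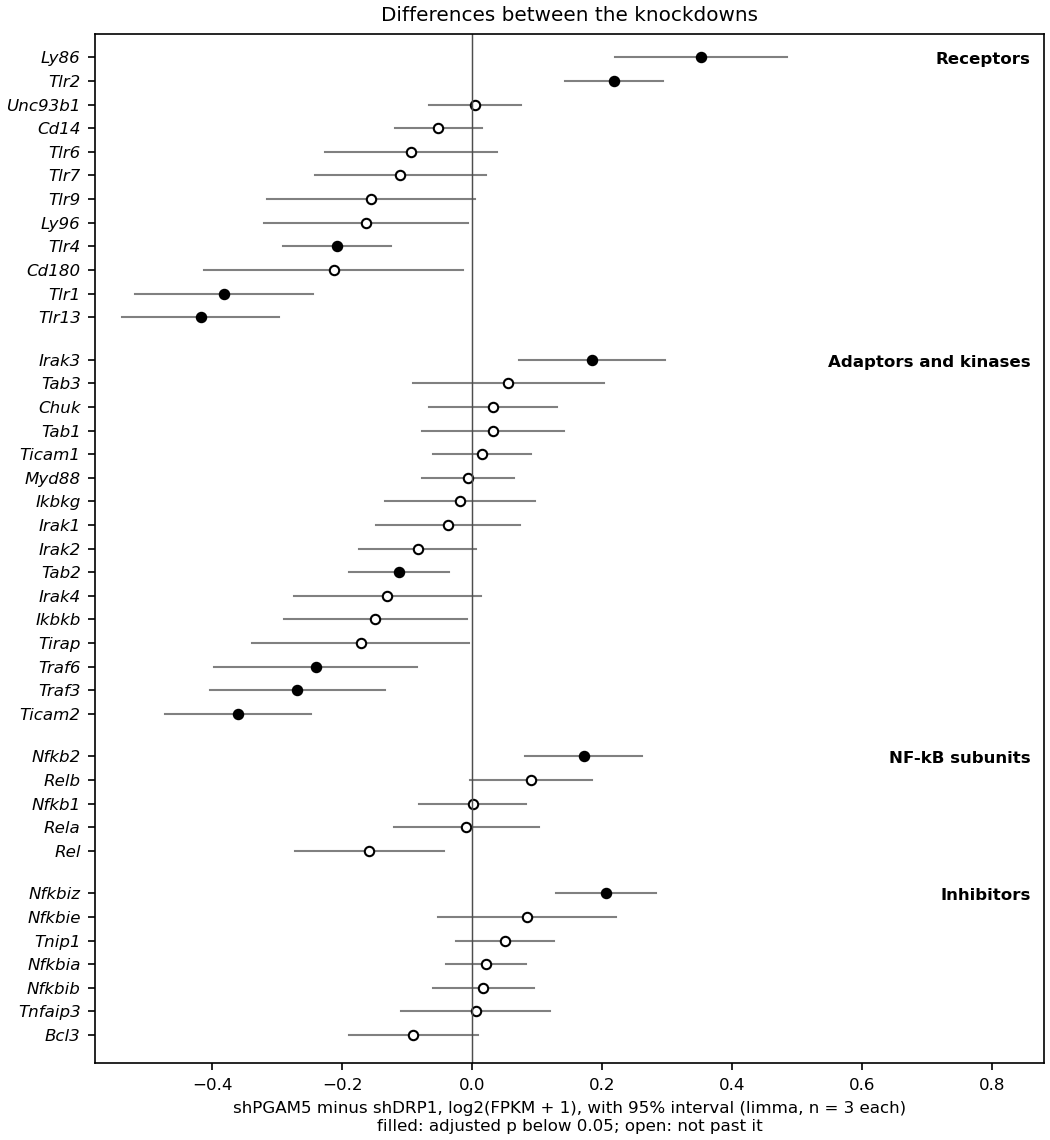
Difference between shPGAM5 and shDRP1 on log2(FPKM + 1) with its 95% interval from limma, for the 40 tested members grouped by role and ordered by size. Filled points passed an adjusted p of 0.05 and run from Tlr13 at -0.42 to Ly86 at 0.35, while among the NF-kB subunits and inhibitors no point lies farther from 0 than Nfkbiz at 0.21.

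Among the TIR-domain adaptors, Ticam2 fell and the more abundant Myd88 and Ticam1 hardly differed. Ticam2 (ENSMUSG00000056130, chromosome 18, 46557291 to 46574533, minus strand) encodes the bridging adaptor that links TLR4 in endosomes to the adaptor TRIF. It measured 9.63, 9.71 and 9.74 FPKM in shPGAM5, against 13.5, 12.0 and 12.8 FPKM in shDRP1. The groups did not overlap, the mean fell by 23.9% (difference -0.36, SE 0.048, limma adjusted p = 0.0020), and the call passed under all 13 alternatives in which it was tested. On the same strand, exons of Tmed7 overlap 14.5% of the exonic bases of Ticam2, and reads there can be lost from both. Tmed7 stood at 27.0 to 28.0 FPKM in shPGAM5 and 29.7 to 30.1 FPKM in shDRP1 (difference -0.12, limma adjusted p = 0.022). Its part in the Ticam2 difference was not tested.

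Myd88 encodes the adaptor used by all of these receptors other than TLR3. It measured 57.2, 56.8 and 57.2 FPKM in shPGAM5, against 55.5, 57.9 and 58.5 FPKM in shDRP1. Its groups overlapped and its difference was -0.0062, with a 95% interval of -0.077 to 0.064. Ticam1, the gene of TRIF, averaged 31.4 ± 0.62 FPKM in shPGAM5 and 31.1 ± 0.70 FPKM in shDRP1 (difference 0.015, interval -0.061 to 0.091). Tirap, the gene of the adaptor that brings MyD88 to the membrane, measured 4.99, 4.81 and 4.04 FPKM in shPGAM5, against 5.38, 5.17 and 5.36 FPKM in shDRP1, with no overlap, and did not pass (difference -0.17, limma adjusted p = 0.12).

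In the IRAK family, Irak3 rose and the others did not pass. Irak3 (ENSMUSG00000020227, chromosome 10, 120141648 to 120202130, minus strand) encodes IRAK-M, a family member that damps receptor signalling. It measured 33.1, 31.9 and 29.3 FPKM in shPGAM5, against 26.8, 27.5 and 28.2 FPKM in shDRP1. All shPGAM5 values were higher, by 14.2% in mean (difference 0.18, SE 0.048, limma adjusted p = 0.029). That call was not stable. Over 14 alternatives its adjusted p lay between 0.0052 and 0.098, and it was above the threshold in 8 of them, which were no expression filter, quantile normalization, the replicate block, and leaving out shPGAM5 library 1 or 2 or any 1 shDRP1 library. Irak1, the kinase that leaves the receptor complex to meet TRAF6, measured 32.1, 30.3 and 28.3 FPKM in shPGAM5, against 31.1, 30.8 and 31.0 FPKM in shDRP1. Irak2 averaged 14.5 ± 0.38 FPKM in shPGAM5 and 15.4 ± 0.46 FPKM in shDRP1. Irak4, the kinase that acts first in the family, averaged 5.63 ± 0.39 FPKM in shPGAM5 and 6.25 ± 0.36 FPKM in shDRP1. The groups overlapped for Irak1, Irak2 and Irak4 (limma adjusted p = 0.61, 0.16 and 0.17 in that order).

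Both TRAF ligase genes fell. Traf3 (ENSMUSG00000021277, chromosome 12, 111166370 to 111267153, plus strand) encodes a ligase that serves the interferon branch and holds the kinase NIK at low levels. It measured 7.94, 7.15 and 6.89 FPKM in shPGAM5, against 9.01, 8.71 and 9.35 FPKM in shDRP1. The groups did not overlap and the mean fell by 18.8% (difference -0.27, SE 0.057, limma adjusted p = 0.013). Without shDRP1 library 3 the adjusted p of Traf3 was 0.055, while in the other 13 alternatives it passed. Traf6 (ENSMUSG00000027164, chromosome 2, 101678429 to 101701669, plus strand), whose product builds the ubiquitin chains that recruit the TAK1 kinase, measured 5.03, 5.95 and 5.80 FPKM in shPGAM5, against 6.71, 7.14 and 6.50 FPKM in shDRP1. These groups also stayed apart (difference -0.24, SE 0.066, limma adjusted p = 0.035). The Traf6 call was lost without an expression filter and without shPGAM5 library 1 or any 1 shDRP1 library (adjusted p of up to 0.12).

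Downstream of TRAF6, the genes of the TAK1 partners and of the IKK complex differed little. Tab2 (ENSMUSG00000015755, chromosome 10, 7905653 to 7956230, minus strand), whose product ties TAK1 to ubiquitin chains, measured 34.3, 33.0 and 32.4 FPKM in shPGAM5, against 35.4, 36.5 and 36.0 FPKM in shDRP1. It fell by 7.7% in mean (difference -0.11, SE 0.033, limma adjusted p = 0.043). That was the smallest difference that passed, and it failed in 8 of 14 alternatives, among them each left-out library other than shPGAM5 library 1, with an adjusted p of up to 0.14. Tab1 and Tab3 did not pass (differences 0.032 and 0.056). Of the IKK subunits, Chuk measured 23.9, 23.5 and 23.9 FPKM in shPGAM5, against 21.9, 24.2 and 23.6 FPKM in shDRP1. Ikbkg, the regulatory subunit, averaged 6.25 ± 0.17 FPKM in shPGAM5 and 6.34 ± 0.32 FPKM in shDRP1. Ikbkb, the catalytic subunit that phosphorylates IkB in the canonical pathway, measured 4.12, 3.70 and 3.77 FPKM in shPGAM5, against 4.64, 4.42 and 4.12 FPKM in shDRP1. Its groups only just stayed apart, and it did not pass (difference -0.15, limma adjusted p = 0.11), except with voom (adjusted p = 0.026). As recovered, FPKM was scaled to all exonic bases, 19078 for Ikbkb and 5087 for Chuk, whose longest transcripts hold 4845 and 3502 bases. The FPKM of Ikbkb and Chuk are thus no ranking by number of transcripts. Over the 16 adaptors and kinases, all tested, 1 rose, 4 fell and 11 did not pass, beside 13.8% and 11.7% of all genes tested. The median difference of the role was -0.060. Without shDRP1 library 1 or 2 the counts were 0 that rose and 2 that fell. Without shDRP1 library 3 they were 0 and 1. Without shPGAM5 library 1 or 2, 0 rose. Calls over all genes tested also dropped, from 1464 that rose and 1240 that fell with all 6 libraries. They were 1000 and 832, 980 and 822, and 1002 and 819 without shDRP1 library 1, 2 and 3 in that order. Without shPGAM5 library 1 or 2, 1320 and 1132 genes rose.

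Of the 5 NF-kB subunit genes, Nfkb2 rose and the other 4 did not pass, beside the 25.4% of all genes tested that were called. Nfkb2 (ENSMUSG00000025225, chromosome 19, 46304320 to 46312385, plus strand) encodes the precursor whose processed form pairs with RelB in the non-canonical pathway. It measured 35.3, 38.0 and 38.3 FPKM in shPGAM5, against 33.0, 33.2 and 32.4 FPKM in shDRP1. The shPGAM5 values were all higher, by 13.1% in mean (difference 0.17, SE 0.038, limma adjusted p = 0.016). The call was lost without shPGAM5 library 2 or shDRP1 library 1 or 3, with an adjusted p of up to 0.064. On the opposite strand, exons of other genes, Psd among them, overlap 18.1% of the exonic bases of Nfkb2. Since the strand setting of the libraries is not given, reads there cannot be assigned with certainty. Psd, far lower in level, did not pass (difference 0.053, limma adjusted p = 0.59).

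Relb, the partner of processed Nfkb2, measured 14.2 FPKM in each of the 3 shPGAM5 libraries, against 12.7, 13.8 and 13.3 FPKM in shDRP1. Its groups did not overlap and it did not pass (difference 0.091, limma adjusted p = 0.14). Rel, the gene of c-Rel, ran the other way, at 21.4, 20.9 and 19.0 FPKM in shPGAM5, against 22.4, 23.6 and 22.7 FPKM in shDRP1. Its adjusted p was just above the threshold (difference -0.16, limma adjusted p = 0.052) and ranged from 0.013 to 0.16 over 14 alternatives. It passed under 5 of them, which were a filter at 5 FPKM, quantile normalization, median-ratio scaling, voom and leaving out shPGAM5 library 1. Rela, the gene of the transactivating subunit of the canonical dimer, was the highest of the 5 subunits in FPKM. It measured 43.4, 43.3 and 42.7 FPKM in shPGAM5, against 44.0, 40.4 and 46.0 FPKM in shDRP1. Nfkb1, the gene of its usual partner, averaged 23.2 ± 0.52 FPKM in shPGAM5 and 23.2 ± 0.61 FPKM in shDRP1. Neither differed beyond its spread, with 95% intervals of -0.12 to 0.10 for Rela and -0.081 to 0.083 for Nfkb1. As recovered, FPKM was scaled to all exonic bases of a gene. These were 12061 for Nfkb1, with a longest transcript of 4149 bases. For Rela the annotation gives 3072, with a longest transcript of 2716 bases. At that length the reads of Rela were not whole, so the length used for it is not known. FPKM therefore does not rank these genes by number of transcripts.

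Of the 7 inhibitor genes, Nfkbiz rose and 6 did not pass, beside the 25.4% of all genes tested that were called. Nfkbiz (ENSMUSG00000035356, chromosome 16, 55811375 to 55838899, minus strand) encodes a nuclear IkB protein that macrophages need to switch on a set of late genes such as Il6. It measured 52.8, 52.1 and 50.1 FPKM in shPGAM5, against 43.5, 45.1 and 45.3 FPKM in shDRP1. All shPGAM5 libraries lay above all shDRP1 libraries, by 15.7% in mean (difference 0.21, SE 0.033, limma adjusted p = 0.0043), and the call passed under all 14 alternatives. Bcl3, the other nuclear IkB gene of the list, averaged 26.4 ± 1.07 FPKM in shPGAM5 and 28.1 ± 0.96 FPKM in shDRP1 and did not pass (difference -0.090, limma adjusted p = 0.16).

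The cytoplasmic inhibitors lay close together in the 2 groups. Nfkbia, the gene of IkB-alpha and a direct target of NF-kB, measured 139, 138 and 140 FPKM in shPGAM5, against 138, 134 and 139 FPKM in shDRP1. Its difference of 0.021 had a 95% interval of -0.040 to 0.083, the groups overlapped, and it passed in 0 of 14 alternatives. Nfkbib averaged 81.7 ± 2.61 FPKM in shPGAM5 and 80.7 ± 1.61 FPKM in shDRP1 and overlapped between groups, as did Nfkbie (difference 0.085, limma adjusted p = 0.33). Tnfaip3, whose product A20 trims ubiquitin chains from signalling proteins and is induced by NF-kB, measured 4.67, 5.00 and 4.75 FPKM in shPGAM5, against 4.77, 4.95 and 4.63 FPKM in shDRP1. The groups were interleaved (difference 0.0057, interval -0.11 to 0.12). Tnip1, the gene of a partner of A20, measured 71.7, 72.7 and 69.4 FPKM in shPGAM5, against 67.5, 68.2 and 70.6 FPKM in shDRP1, and did not pass (limma adjusted p = 0.29). The kappaB matches printed above occur both in members that rose (Tlr2, Nfkb2) or fell (Traf3) and in members that did not pass (Rel, Nfkbia, Tnip1, Tnfaip3). Over all members with an entry, a match stood for 2 of 4 that rose and 1 of 5 that fell. It stood for 6 of 20 that did not pass and 1 of 3 not tested, beside 8.23% of all genes with an entry. The called members Tlr4, Ticam2 and Nfkbiz have no entry, and a relation of the matches to the calls was not tested.

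Ratios between genes whose products work together do not depend on a library's total, and 14 such pairs were compared, chosen after the members' values were seen. The level of a ratio depends on the exonic lengths used, so only shifts between the groups are described. The ratio of Tlr2 to Tlr1 was 33.1, 32.6 and 30.2 in shPGAM5, against 18.5, 18.6 and 19.1 in shDRP1, or 1.71-fold higher. It was the pair with the largest shift, and its groups were far apart. The ratio of Ly86 to Cd180 was 0.479, 0.530 and 0.679 in shPGAM5, against 0.350, 0.347 and 0.375 in shDRP1, or 1.57-fold higher, with the highest value in shPGAM5 library 3. The ratio of Ticam1 to Ticam2 was 3.23, 3.30 and 3.18 in shPGAM5, against 2.27, 2.56 and 2.49 in shDRP1. In each of these pairs every shPGAM5 library lay above every shDRP1 library. The ratio of Tlr4 to Ly96, the 2 parts of the lipopolysaccharide receptor, was 4.58, 5.55 and 4.67 in shPGAM5, against 4.85, 4.97 and 5.23 in shDRP1, with full overlap. The ratios of Nfkb1 to Rela (0.538 ± 0.0089 in shPGAM5 and 0.535 ± 0.033 in shDRP1) and of Nfkbia to Rela (3.23 ± 0.041 in shPGAM5 and 3.16 ± 0.15 in shDRP1) also overlapped. Over the 14 pairs, 6 were higher in shPGAM5 without overlap, 3 were lower without overlap and 5 overlapped. Among single genes tested 43.5% did not overlap, and no such share is given for ratios. Because the pairs were chosen with the values known, these counts are no test. Tlr2 and Ly86 lay higher without overlap and Tlr1, Tlr6 and Cd180 lower. The ratios of Tlr2 to Tlr1, of Tlr2 to Tlr6 and of Ly86 to Cd180 therefore had to separate. Beside these and Ticam1 to Ticam2, the pairs higher without overlap were Irak3 to Irak4 and Myd88 to Tirap. Those that were lower were Tlr4 to Cd14, Ikbkb to Chuk and Rel to Rela. The exact permutation p of each of these 9 pairs was 0.1 (0.16 after Benjamini-Hochberg adjustment over the 14 pairs), the smallest that 3 libraries against 3 allow, so this test could not pass 0.05 for any pair. Leaving out any 1 library kept the Tlr2 to Tlr1 difference between 0.74 and 0.81 on the log2 scale and the Ly86 to Cd180 difference between 0.50 and 0.75.

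**Figure D3:**
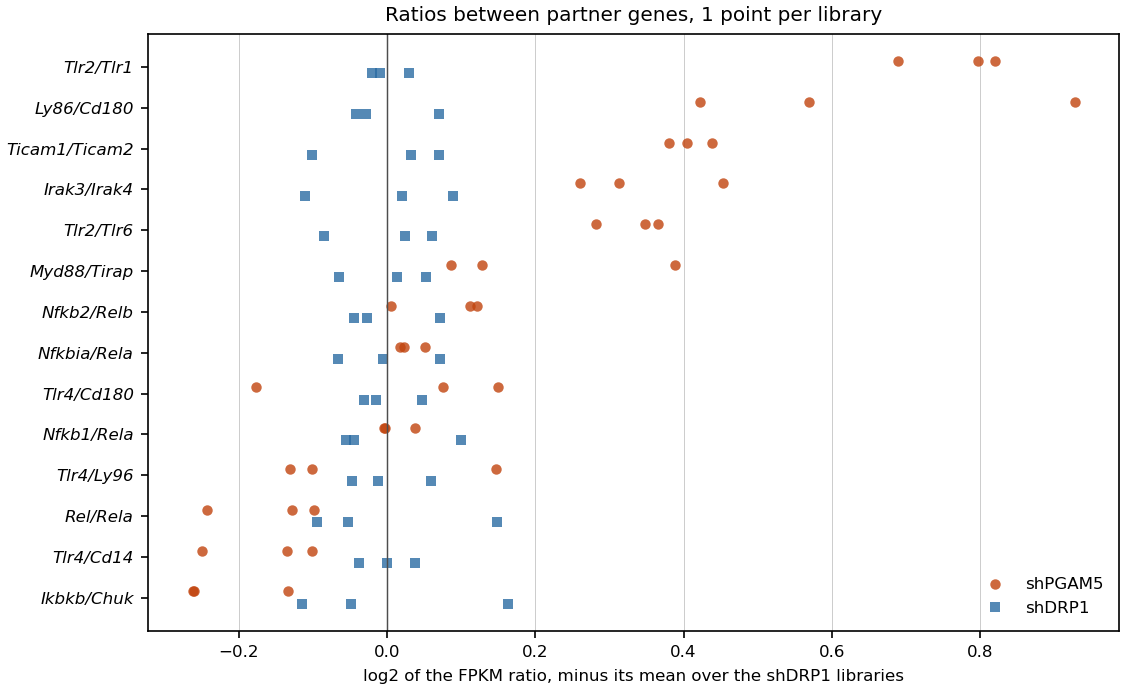
log2 of the FPKM ratio of 14 partner pairs in each library, with the mean of the shDRP1 libraries subtracted, shPGAM5 as circles above shDRP1 as squares. The 3 shPGAM5 points of Tlr2/Tlr1 have the highest mean, 0.77, the single highest point is that of Ly86/Cd180 in shPGAM5 library 3, and the points of Nfkb1/Rela and Tlr4/Ly96 mix with the shDRP1 points.

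Of 40 other genes of the pathway, written as a list of regulators and further components, 32 were tested, 5 rose, 6 fell and 21 did not pass, beside the 25.4% of all genes called. The median difference was -0.018. Traf1, an adaptor gene that NF-kB induces, averaged 39.1 ± 0.71 FPKM in shPGAM5 and 28.7 ± 1.08 FPKM in shDRP1 (difference 0.44, limma adjusted p = 0.00027). Map3k14 is the gene of NIK, the kinase that triggers processing of the Nfkb2 product and whose protein TRAF3 keeps low. The values here are RNA, and a link to Traf3 or Nfkb2 was not tested. Map3k14 measured 5.32, 5.12 and 4.33 FPKM in shPGAM5, against 3.86, 3.54 and 3.84 FPKM in shDRP1. All shPGAM5 values were higher (difference 0.32, limma adjusted p = 0.020), and the call was lost without an expression filter and without shPGAM5 library 1 or 2 or any 1 shDRP1 library (adjusted p of up to 0.073). Rbck1, a subunit gene of the ligase that builds linear ubiquitin chains, averaged 15.7 ± 1.04 FPKM in shPGAM5 and 12.8 ± 0.60 FPKM in shDRP1 (difference 0.27, limma adjusted p = 0.012). The others that rose, named after their values were seen, were Otulin, which removes linear chains (difference 0.21), and Rnf31, the catalytic subunit of the same ligase (0.17). Rnf31 lost its call in 9 of 14 alternatives, each left-out library among them (adjusted p of up to 0.14). Sharpin, the third subunit, did not pass.

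The largest decreases in that list were in Tifa, Nfkbid and Tnip3. Tifa, the gene of an adaptor that binds TRAF6, averaged 2.93 ± 0.21 FPKM in shPGAM5 and 5.03 ± 0.57 FPKM in shDRP1 (difference -0.61, limma adjusted p = 0.0020). Tnip3, a relative of Tnip1, averaged 3.54 ± 0.068 FPKM in shPGAM5 and 5.17 ± 0.085 FPKM in shDRP1 (difference -0.44, limma adjusted p = 0.00063). Nfkbid, a further nuclear IkB gene, averaged 17.6 ± 0.94 FPKM in shPGAM5 and 22.5 ± 1.00 FPKM in shDRP1 (difference -0.34, limma adjusted p = 0.0032), the opposite direction to Nfkbiz. Cd36, Peli1 and Hsp90b1, named after their values were seen, also fell, by differences of -0.19, -0.19 and -0.12. Without shPGAM5 library 1 or 2 or any 1 shDRP1 library, 3 genes of the list rose. Over all genes tested, 980 to 1320 rose in these settings, against 1464 with all 6 libraries.

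Of 36 listed genes known as targets of NF-kB, 32 were tested, 16 rose, 5 fell and 11 did not pass. Among all genes tested 13.8% rose and 11.7% fell, and the median difference of the listed genes was 0.16. This list was also chosen with earlier results of these data known, so its counts are no test of NF-kB activity. The 43 members are not counted here, whether or not NF-kB induces them. Among them Nfkbia and Tnfaip3, which NF-kB induces, did not pass. Of the members 5 rose, Tlr2, Nfkb2 and Nfkbiz among them, and 7 fell. Nfkbid and Traf1 are in this list and in that of the other pathway genes. Il1b, Il6 and Ptgs2 had the largest increases. Il6, a cytokine gene that depends on the Nfkbiz product, measured 4.29, 4.64 and 5.40 FPKM in shPGAM5, against 1.58, 1.70 and 1.20 FPKM in shDRP1 (difference 1.21, limma adjusted p = 0.00028). Ptgs2 averaged 148 ± 0.82 FPKM in shPGAM5 and 63.6 ± 0.89 FPKM in shDRP1, and Il1b 9.86 ± 1.17 FPKM in shPGAM5 and 2.12 ± 0.26 FPKM in shDRP1. Each of these differences, at 1.21, 1.21 and 1.80, exceeded the largest of any pathway member. The largest decreases were in Bcl2a1b (difference -0.49), a survival gene with near-identical copies that can share its reads, in the chemokine gene Ccl5 (-0.45) and in Nfkbid. Tnf and Nos2, also named after their values were seen, overlapped between groups and did not pass. Ccnd1, Saa3, Zc3h12a and Icam1, named in the same way, lost their calls in 9, 7, 3 and 2 of 14 alternatives in that order.

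**Figure D4:**
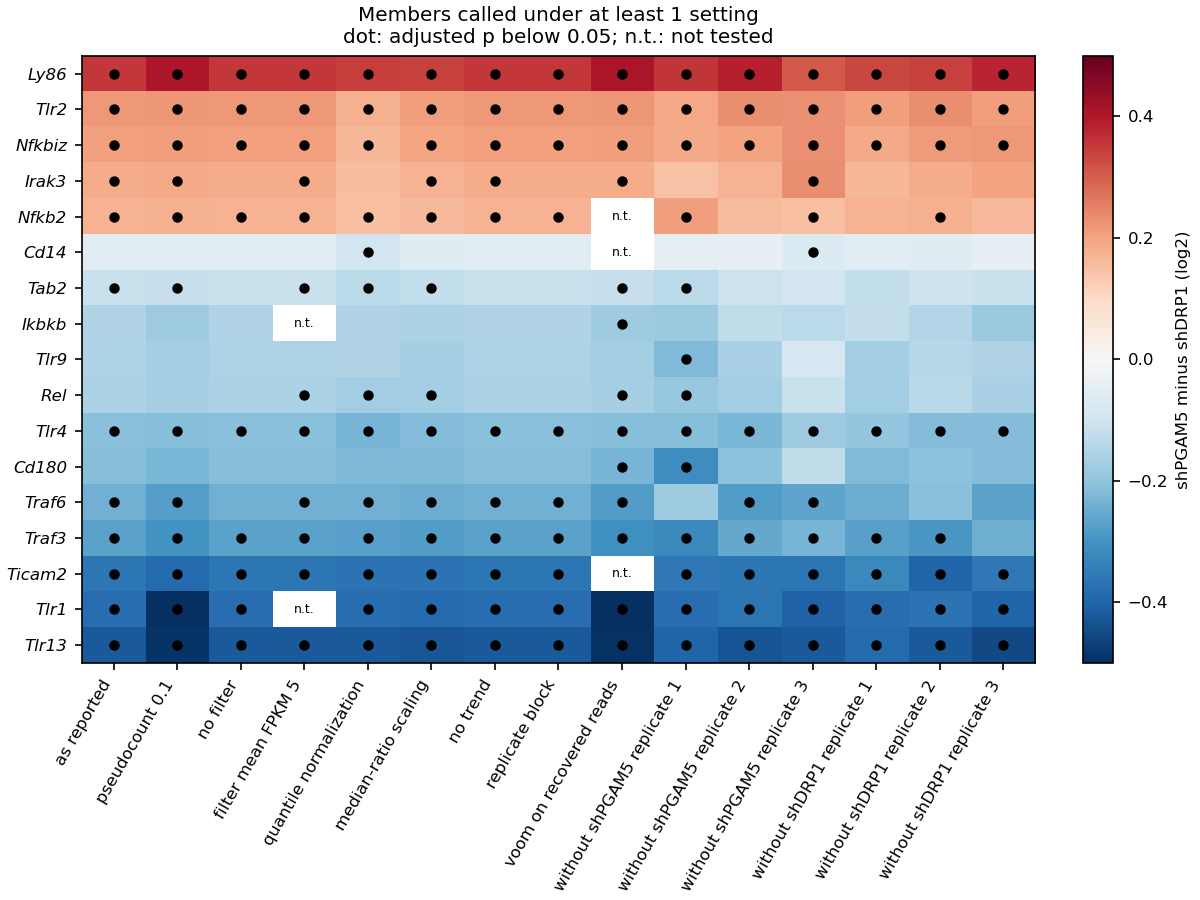
Difference between shPGAM5 and shDRP1 (colour, log2 scale) of the 17 members called under at least 1 setting, by gene and setting. Dots mark an adjusted p below 0.05, and they fill the rows of Ly86, Tlr2, Nfkbiz, Tlr4, Ticam2, Tlr1 and Tlr13 wherever these were tested.

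Of the 12 members called, 7 passed in every alternative in which they were tested (Tlr1, Tlr2, Tlr4, Tlr13, Ly86, Ticam2 and Nfkbiz) and 5 were lost in at least 1 (Irak3, Traf3, Traf6, Tab2 and Nfkb2). Of the 28 members that did not pass, 23 passed under none of the alternatives run and Cd14, Cd180, Ikbkb, Rel and Tlr9 passed under at least 1.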

How the data were processed

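The deposited values were FPKM, made by the authors, 1 value per gene identifier and library. Per the submitters' processing notes, HISAT2 2.0.5 and featureCounts 1.5.0-p3 were used with build mm10. The sources used here do not state the FPKM formula, annotation release or strand setting; per the labels' protocols, mRNA was selected with poly-T beads and the libraries could be directional or not. Because FPKM is a share of the library, very abundant genes can depress all other values.

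Symbols, positions and exonic lengths came from GENCODE M21 (54409 identifiers matched, 123 did not). Each FPKM times exonic length and 1 depth per library came within 0.02 of a whole number for 96.1% of values above 0, which gave the depths and reads. For Cd14, Unc93b1, Ticam2, Rela and Nfkb2 the reads were not whole, so voom was not run on them. Detection limits (3 reads) cover counting error only.

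On log2(FPKM + 1), limma 3.58.1 (R 4.3.3, trend, two-sided, Benjamini-Hochberg) was run over genes averaging at least 1 FPKM, a step tested on simulated data. The simulated libraries had the same excess scatter for every gene and none that stood apart. That run therefore does not give the error rate in these data. Near-identical and overlapping genes were searched with blastn 2.17.0 (97% identity, 100 bases) and in the annotation. There were 14 alternatives. Members that passed, and the member of each sub-role highest in mean FPKM, get values per library. From each further list the 3 called genes with the largest difference per direction are named. Other names were chosen after their values were seen. The members and lists were chosen with earlier results of these data known.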

Additional observations from a re-analysis of the deposited data

How the results depend on the processing

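Counts per role are small, so single genes move them. Among adaptors and kinases, 0 rose without an expression filter, under quantile normalization and with the replicate block, and 2 fell without the filter. Among NF-kB subunits, 1 fell with a filter at 5 FPKM, under quantile normalization, under median-ratio scaling and with voom, and 0 rose with voom, which was not run on Nfkb2. Leaving out each library in turn gave 3 to 5 receptors that fell, 0 to 1 adaptors and kinases that rose and 1 to 3 that fell, 0 to 1 NF-kB subunits that rose and 0 to 1 that fell, and 3 to 5 other pathway genes that rose. Of the NF-kB target genes, 13 to 18 rose and 4 to 5 fell. Over all genes tested, 980 to 1456 rose and 819 to 1287 fell, with 822 falling without shDRP1 library 2 and 819 without shDRP1 library 3. The cause of these changes was not tested, apart from the missing Nfkb2 with voom.

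Of 550 values of members under alternatives, 488 kept their direction and their side of the threshold, 25 lost the threshold, 11 gained it and 26 changed sign. No sign changed in a member that was called. The 11 members concerned lay within 0.037 of 0. Under quantile normalization the differences were -0.027 for Unc93b1, -0.0065 for Ticam1, -0.020 for Nfkb1, -0.0048 for Nfkbia and -0.020 for Nfkbib. Under median-ratio scaling they were -0.0053 for Unc93b1, -0.0093 for Nfkb1 and -0.0030 for Tnfaip3, and with voom -0.00051 for Nfkb1. Leaving out a library gave ranges of -0.0082 to 0.061 for Chuk, -0.048 to 0.014 for Ikbkg, -0.081 to 0.0088 for Irak1, -0.029 to 0.0083 for Myd88, -0.016 to 0.020 for Nfkb1, -0.0053 to 0.040 for Nfkbib, -0.059 to 0.032 for Rela, -0.00099 to 0.033 for Ticam1, -0.018 to 0.027 for Tnfaip3 and -0.018 to 0.019 for Unc93b1.

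Quantile normalization moved the share of calls that were higher from 54.1% to 49.0% of calls. Deviations of libraries with the same number had correlations of -0.00034 to 0.031, against -0.068 to 0.041 for libraries with different numbers. The labels do not say whether the numbers pair the samples, and these correlations cannot settle it. With the replicate block 1161 genes rose and 972 fell, against 1464 and 1240, and among members Irak3 and Tab2 lost their calls.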
